A study of Mus musculus with 6 samples.

Results

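Motile cilia are the beating hairs of ependymal and other epithelial cells, built on an axoneme, a ring of microtubule doublets around a central pair. In the brain they line the ventricles and move cerebrospinal fluid, and the transcription factor Foxj1 switches on most of the genes that build them. Outer and inner dynein arms provide the force, radial spokes and the central pair regulate it, microtubule inner proteins stiffen the doublets from within, and rulers and the dynein regulatory complex set the spacing of the parts. RFX factors act with Foxj1 through promoter sites called X-boxes.

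The genes described here are 34 named components of motile cilia, chosen as a follow-up of Ribc2, which encodes a microtubule inner protein and whose signal was higher in the knockout at a single probe. A probe was taken as a member's when its gene name was the member or when its transcript was a RefSeq transcript of it. This found 81 probes for 33 genes, of 21292 genes with a named probe on the array, and Dnah3 was not analysed here. The values that chose the set are the Ribc2 signals in the same contrast, so they are given as a description with no test, and they support nothing about the other members.

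RNA of the prefrontal cortex was hybridised to 6 one-colour Agilent arrays, 3 with wild type and 3 with Nrf2 knockout samples. All samples came from male mice of the ICR stock aged 3 to 4 months, and no treatment is named. Nrf2 is the stress-response transcription factor encoded by Nfe2l2, and how the line was made, and which part of that gene it lacks, is not in the labels. They also do not say that the samples came from separate animals, so the p-values speak only of the spread among these 6 arrays, which may be technical. Slide 1 carried all 3 wild type arrays and knockout 1, and slide 2 carried knockouts 2 and 3. Only knockout 1 can therefore be set against wild type within a slide. Every difference given with slide as a block thus rests on that 1 knockout array.

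By the call of the scanner software, 71.0 to 73.4% of 150305 probes per array were well above background. All 6 markers of cortical excitatory neurons were tested and differed by −0.07 to 0.22 log2 units between genotypes. As a check of the labels, an Nfe2l2 coding probe above background on all arrays differed by −4.08 log2 units in the knockout. Its other 2 coding probes were well above background on no knockout array and were at least 65.8-fold and 81.6-fold lower there, while a probe for its non-coding variant differed by −0.35. Values below are processed signals divided by the 75th percentile of their array, on the log2 scale, called the log2 signal, and a difference is knockout minus wild type. A probe was tested when it was well above background on all 3 arrays of a genotype, and 62 of the 81 member probes were: 61 in 30 genes and 1 of the gene copy Spag6l. In a bulk sample, fewer cells of a type and less RNA per cell cannot be told apart.

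The 2 Ribc2 probes are shown because the choice of the set rests on one of them and the other did not match it. Both are 60 bases long, and the first 30 bases of each are given in lower case with no part marked.
Ribc2 Agilent probe: actatttctcacagtttaatacaaggagcc
Ribc2 custom probe: tatagtagttcctctaggagtcacgcttat
The Agilent probe lies at chr15:84974615-84974674 on build mm9, per the file headers. Both are assigned to the same RefSeq transcript, whether they lie in its coding part or a UTR is not known here, and both have a GC content of 41.7%.

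Ribc2 and Smc1b, a cohesin subunit of meiosis, stand head to head on chromosome 15, and RefSeq on GRCm38 leaves a gap of 102 bases between their annotated starts. Within 250 bases before its start, Ribc2 holds a match to TGAC and GC with 3 bases between them, the core letters of the antioxidant response element that Nrf2 binds. RefSeq lists several Ribc2 starts, of which the gap uses the first, at 85132060, and the windows the later one at 85132099. The match begins 222 bases before the later start and 183 before the first, and it lies inside the annotated Smc1b gene, 72 bases from its edge. It is shown in capitals within 30 bases of the plus strand at chr15:85131867-85131896.
Ribc2 match: aaagggccgaTGACCTGGCggcctcgccac
The same letters on either strand occur in the windows of 11.5% of 27025 genes and of 2 of the 29 members in the RefSeq promoter table, Ribc2 and the tektin gene Tekt2. A match is a description of letters and not of a bound site.

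A second stretch recurs in these promoters and was noticed in the sequences after the values were known. It is GTTGC and GCAAC with 3 bases between them, a palindrome like the X-box but 1 base shorter, searched on both strands. It stands in 4 of 29 members (13.8%) against 0.233% of all 27025 genes. The letters were taken from these same promoters, so these shares are a description and no test of enrichment. The windows below, of 30 bases each on GRCm38 in the direction of the gene, have the stretch in capitals.
Dynlrb2, chr8:116504956-116504985, plus strand: cctgcctgGTTGCCTAGCAACgggggaagc
Ribc2, chr15:85132057-85132086, plus strand: gaggcgccGTTGCTTAGCAACggaggttgg
Tekt2, chr4:126325696-126325725, minus strand: agggggcgGTTGCTCGGCAACcagagccgc
Tekt4, chr17:25471546-25471575, plus strand: gtgaccctGTTGCTCAGCAACaggaggcag
It begins 51, 34, 29 and 36 bases before the start in Dynlrb2, Ribc2, Tekt2 and Tekt4. For Ribc2 this is the later start, and the stretch lies 5 bases past the first one. For other listed starts of Tekt2 the stretch begins 71 bases before the start or lies outside the window. Beside the measured difference of Ribc2, the other 3 genes that share the stretch differed between genotypes by −0.09, 0.14 and −0.06 log2 units.

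Tekt2 holds the antioxidant response element letters 2 times and is shown whole as the member closest to Ribc2 in these letters. The window shown is that of 1 of its listed starts, and the window of another holds none of these letters. Its 250 bases at chr4:126325689-126325938, minus strand, have both matches and the shorter X-box in capitals.
Tekt2: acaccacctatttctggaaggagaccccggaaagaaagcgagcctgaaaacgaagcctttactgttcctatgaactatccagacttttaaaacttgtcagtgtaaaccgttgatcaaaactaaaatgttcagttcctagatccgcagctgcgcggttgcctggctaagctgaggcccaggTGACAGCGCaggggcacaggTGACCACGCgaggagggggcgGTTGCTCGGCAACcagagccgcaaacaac
The full-length X-box was searched in 1 spelling only, GNTNCC and GGNAAC with 2 bases between them and N for any base. Looser spellings were not searched. These letters stood in 0.784% of all windows and in 1 member, Pifo, at chr3:106001498-106001747 on the minus strand. The window of another listed Pifo start did not hold them.
Pifo: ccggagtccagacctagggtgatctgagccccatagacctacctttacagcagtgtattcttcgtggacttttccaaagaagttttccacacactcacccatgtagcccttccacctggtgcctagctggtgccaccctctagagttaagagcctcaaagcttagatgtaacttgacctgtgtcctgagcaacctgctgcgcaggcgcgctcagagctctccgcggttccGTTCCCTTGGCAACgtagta
The forkhead letters TGTTTAC, for the class of factor that Foxj1 belongs to, occurred in 3.54% of all windows and in 2 members, Ak7 and Mlf1.

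None of the 29 tested members other than Ribc2, which chose the set, passed the threshold. With the probe of highest mean signal for each gene, 11 of 30 members (36.7%) measured higher and 19 lower in the knockout. Of all genes 47.9% measured higher. The median difference of the members was −0.08, or −0.09 without Ribc2 and its paralogue Ribc1. The same median over 18056 genes was −0.01. Per array, the mean deviation of the 30 members was −0.01, −0.08 and 0.09 on the wild type arrays against 0.01, 0.04 and −0.05 on the knockout arrays. These means hold Ribc2, which chose the set. Without Ribc2 and Ribc1 they were 0.03, −0.03 and 0.15 on the wild type arrays against −0.03, −0.02 and −0.10 on the knockout arrays, a mean difference of −0.10. Wild type 2 then lay below knockout 2, so the groups overlapped.

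With Ribc2 set aside, limma called 0 of 61 tested member probes at an adjusted p under 0.05. Of all 105924 tested probes 0.00944% were called (10 probes). An unadjusted p under 0.05 was found for 7 of the 61, and for 15891 of the 105924. At the level of 1 probe per gene, 3 of the 29 other members had an unadjusted p under 0.05, against 12.6% of all genes. The groups did not overlap, with the knockout higher, in 1 of the 29 (Rsph9) against 6.24% of genes. They did not overlap with the knockout lower in 5 (Dnah8, Hydin, Stk36, Tmem212 and Ccdc153) against 13.1%. The 95% interval of the difference lay within ±0.5 log2 units for 16 members and within ±1 for 27, and it spanned 0 for 26.

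**Figure D1:**
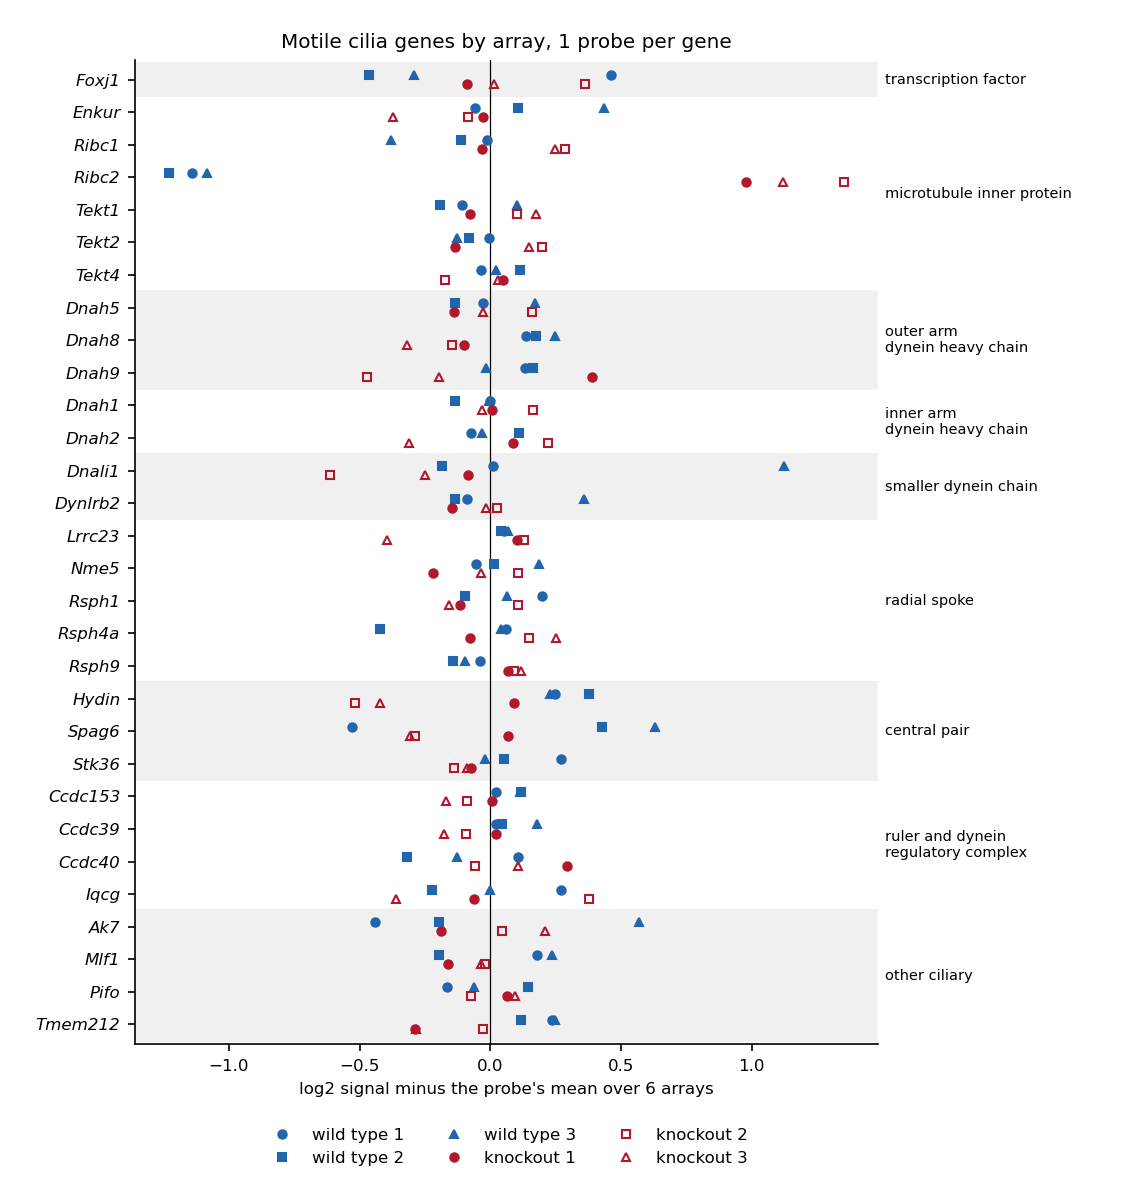
Log2 signal of 30 motile cilia genes on each of 6 arrays (x axis) as the deviation from the mean of its probe, with 1 row per gene grouped by role, wild type in blue and knockout in red. Knockouts 2 and 3, on slide 2, are open symbols, and Ribc2 is the row whose groups lie farthest apart.

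Foxj1 did not differ between genotypes beyond its wide spread. Its log2 signals were −0.11, −1.04 and −0.87 on the wild type arrays against −0.67, −0.21 and −0.56 on the knockout arrays. Wild type 1 was the highest array and wild types 2 and 3 the lowest, so the groups overlapped. The difference was 0.19 (SE 0.26, limma adjusted p = 0.707), and a second probe gave 0.12. The first came to 0.01 with slide as a fixed block and to 0.48 without wild type 1.

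Of the microtubule inner proteins, Ribc2 was the member that chose the set. At its Agilent probe the log2 signals were −7.21, −7.30 and −7.15 on the wild type arrays against −5.09, −4.72 and −4.95 on the knockout arrays. All 3 knockout arrays were well above background and no wild type array was, so the wild type level is only a limit. The measured difference was 2.30, and the bound is that the knockout was at least 1.1-fold higher. After normexp background correction with an offset of 50 the difference was 0.32. Within slide 1 it was 2.13.

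The custom probe of Ribc2 was not tested, and its genotypes overlapped. It measured −5.70, −5.64 and −5.07 on the wild type arrays against −4.66, −4.36 and −5.43 on the knockout arrays. Of its arrays, 1 wild type and 2 knockouts were well above background, and knockout 3 lay below wild type 3. The neighbour Smc1b was tested at 2 probes, which differed by −0.06 and −0.04 with overlapping groups (limma adjusted p = 0.907 and 0.922). The pattern of detection of Ribc2, above background on 3 knockout and 0 wild type arrays, was found in 219 tested probes, Ribc2 included. Of these, 5 had a measured difference at least as large as that of Ribc2 and 208 a bound at least as high, again with Ribc2 counted. The opposite pattern occurred in 170 probes.

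Ribc1, the paralogue of Ribc2, did not pass the threshold. Its Agilent probe measured −1.68, −1.78 and −2.05 on the wild type arrays against −1.70, −1.38 and −1.42 on the knockout arrays. Knockouts 2 and 3 were the highest arrays, while knockout 1 lay among wild type. The difference was 0.34 (SE 0.14, limma adjusted p = 0.334), which came to 0.14 with slide as a block. Its custom probe differed by −0.21, in the other direction.

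The tektins form filaments within the doublets, and Enkur is another protein of the doublet wall. Enkur measured 0.12, 0.28 and 0.61 on the wild type arrays against 0.15, 0.09 and −0.20 on the knockout arrays. Wild types 2 and 3 were above every knockout array, but wild type 1 was not, and the difference was −0.32 (SE 0.16, adjusted p = 0.37 in limma). Tekt1, Tekt2 and Tekt4 differed by 0.13, 0.14 and −0.06. Tekt1 had 3 tested probes, all above 0, from 0.10 to 0.33, though the brightest came to −0.01 with slide as a block, and Tekt2 had 2 of opposite sign.

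**Figure D2:**
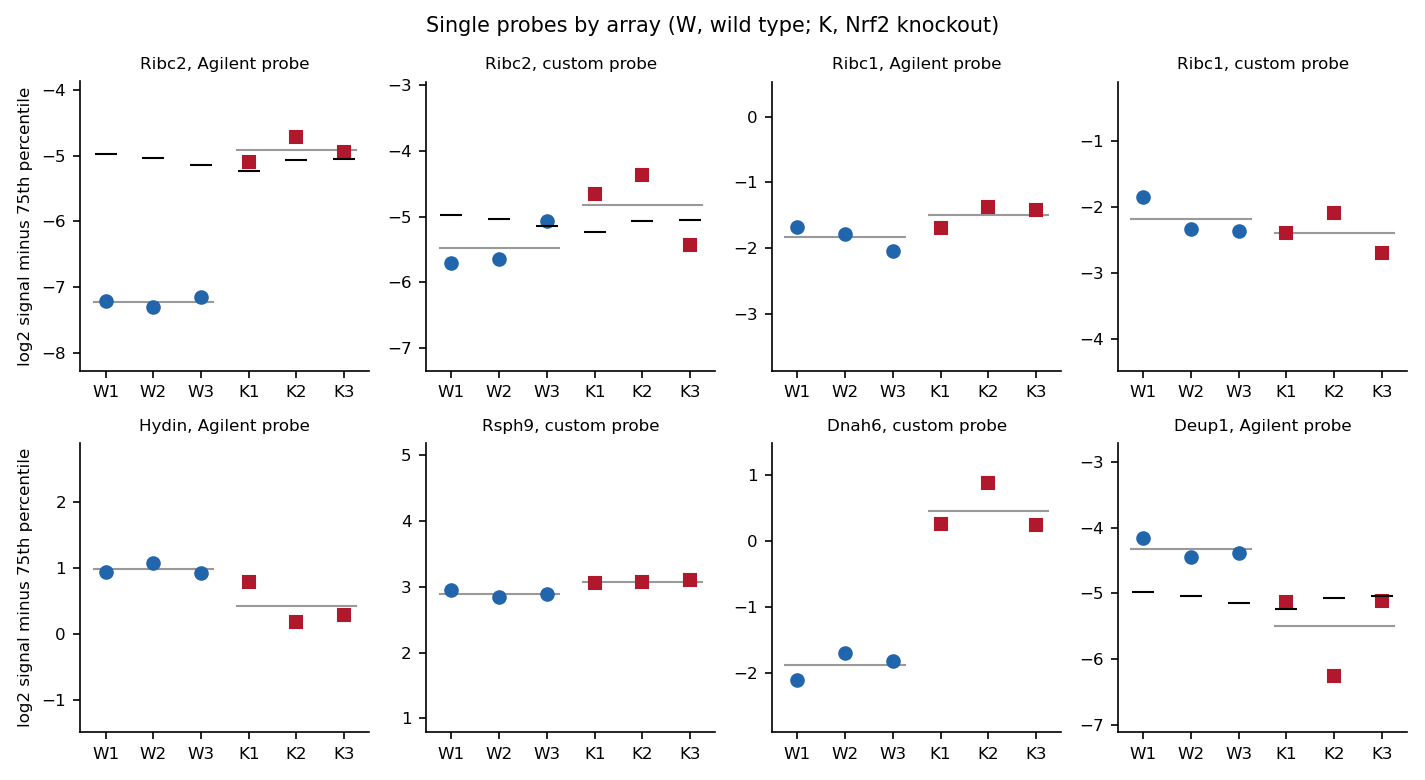
Log2 signal on each array (x axis; W, wild type; K, Nrf2 knockout) for 8 probes, with group means as grey lines and, in the panels with dim values, the lowest signal well above background on that array as black dashes. The wild type values of the Ribc2 Agilent probe lie about 2 log2 units below the dashes, at −7.21, −7.30 and −7.15, and its custom probe straddles them.

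The outer arm heavy chains, the motor subunits Dnah5, Dnah8 and Dnah9, did not differ past the threshold. Dnah8 measured −0.02, 0.02 and 0.09 on the wild type arrays against −0.26, −0.30 and −0.47 on the knockout arrays. Every knockout array was below every wild type array. The difference was −0.37 (SE 0.10, limma adjusted p = 0.307), and a second probe, of overlapping groups, gave 0.03.

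Dnah9 measured 0.77, 0.80 and 0.62 on the wild type arrays against 1.02, 0.16 and 0.44 on the knockout arrays. Knockout 1 was the highest array of all and knockouts 2 and 3 the lowest. The difference of −0.19 (SE 0.22, adjusted p = 0.665 in limma) turned to 0.30 with slide as a block. The other 2 tested probes of Dnah9 differed by −0.47 and −0.04. At the first, a dim probe, the groups did not overlap (limma adjusted p = 0.307). Its difference was −0.50 with slide as a block but 0.0008 after normexp correction.

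Dnah5 measured −0.87, −0.97 and −0.66 on the wild type arrays against −0.98, −0.68 and −0.86 on the knockout arrays, a difference below 0.01 log2 units in size. Its 3 tested probes ran from −0.37 to 0.24. At the lowest of these every knockout array was below every wild type array (limma adjusted p = 0.311). That difference was −0.57 with slide as a block and −0.23 after normexp correction. The 2 probes of Dnah11, the other outer arm gene, were well above background on knockout 2 alone, where they measured −2.84 and −4.07 against −5.00 and −5.83 on knockout 3, and they were not tested.

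Among the inner arm heavy chains, Dnah1 measured 0.16, 0.03 and 0.16 on the wild type arrays against 0.17, 0.33 and 0.13 on the knockout arrays. The groups overlapped, and the difference was 0.09 (SE 0.10, limma adjusted p = 0.631). Dnah2 measured −3.15, −2.96 and −3.11 on the wild type arrays against −2.99, −2.85 and −3.39 on the knockout arrays. Knockouts 2 and 3 were the highest and lowest of its arrays. The difference was under 0.01 in size, with a 95% interval of −0.37 to 0.37.

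Of the smaller dynein chains, Dnali1, the light intermediate chain of the inner arms, had the largest negative difference in the set. It measured −4.34, −4.54 and −3.23 on the wild type arrays against −4.44, −4.96 and −4.60 on the knockout arrays. Wild type 3 alone stood high, and wild type 2 lay among the knockouts. The difference was −0.63 (SE 0.35, limma adjusted p = 0.401), −0.23 without wild type 3 and −0.10 after normexp correction. Dynlrb2, a roadblock-type light chain, measured −0.42, −0.47 and 0.02 on the wild type arrays against −0.48, −0.31 and −0.35 on the knockout arrays. Wild type 3 was again the highest array. Its difference was −0.09 (SE 0.15, adjusted p = 0.767 in limma), and its 3 tested probes lay between −0.10 and −0.03.

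**Figure D3:**
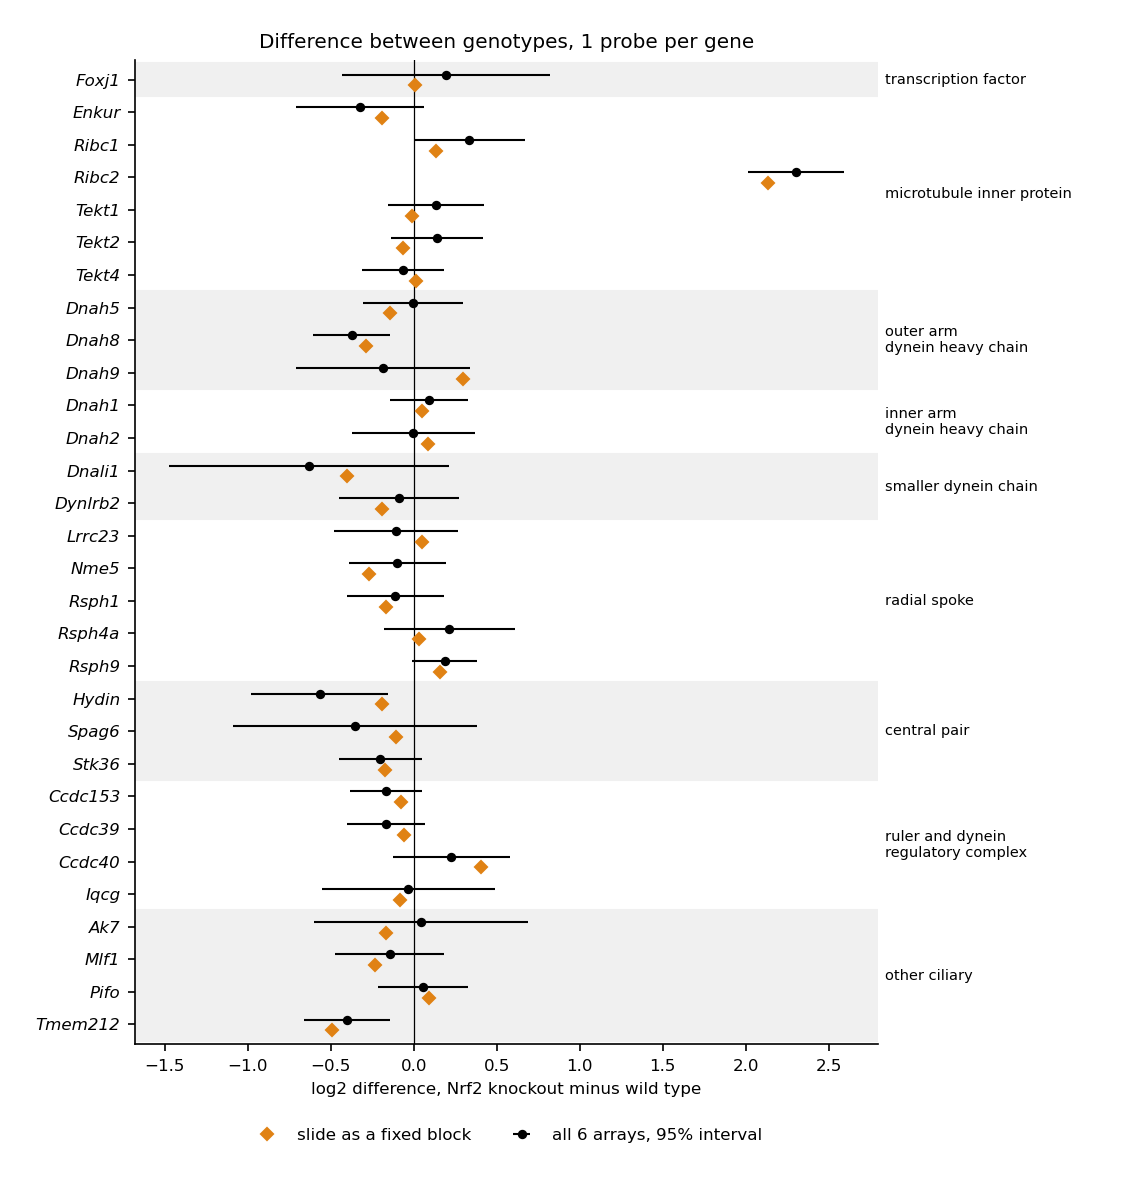
Difference in log2 signal between Nrf2 knockout and wild type (x axis) for 30 genes, with the 95% interval of the fit to all 6 arrays as black bars and the value with slide as a fixed block as orange diamonds. The intervals of 26 genes span 0, and the diamonds of Hydin and Dnah9 stand well apart from their points, at −0.19 and 0.30.

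The radial spoke genes differed by small amounts of both signs. Nme5, a nucleoside diphosphate kinase family protein of the spoke, measured 3.76, 3.83 and 4.00 on the wild type arrays against 3.59, 3.92 and 3.78 on the knockout arrays, a difference of −0.10 (SE 0.12, adjusted p = 0.68 in limma). The spoke head gene Rsph1 measured 0.32, 0.02 and 0.19 on the wild type arrays against 0.01, 0.23 and −0.04 on the knockout arrays, a difference of −0.11 (SE 0.12, adjusted p = 0.642 in limma). The groups overlapped for both genes. Rsph4a, another spoke head gene, measured −2.67, −3.15 and −2.69 on the wild type arrays against −2.81, −2.58 and −2.48 on the knockout arrays. Knockouts 2 and 3 were its highest arrays. The difference was 0.21 (SE 0.16, limma adjusted p = 0.513) and was 0.03 with slide as a block.

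Rsph9, also of the spoke head, was singled out after its values were seen, since its groups did not overlap at either probe. The first measured 2.95, 2.84 and 2.89 on the wild type arrays against 3.05, 3.08 and 3.11 on the knockout arrays. The difference was 0.19 (SE 0.08, limma adjusted p = 0.344), and it was 0.29 at the second probe (adjusted p = 0.308). With slide as a block the first was 0.16. Lrrc23, a spoke protein, differed by −0.11.

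The central pair genes with a tested probe, Hydin, Spag6 and Stk36, all measured lower in the knockout at their brightest probe. Hydin, the large central pair protein whose loss causes hydrocephalus in mice, measured 0.95, 1.08 and 0.93 on the wild type arrays against 0.79, 0.18 and 0.28 on the knockout arrays. The groups did not overlap, but knockout 1 lay closer to wild type than to knockouts 2 and 3. The difference was −0.57 (SE 0.17, limma adjusted p = 0.307). It was −0.19 with slide as a block and −0.75 without knockout 1 (limma adjusted p = 0.00882), where slide and genotype cannot be told apart. A dimmer second probe gave 0.17.

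Stk36, a kinase needed for central pair assembly, measured −0.03, −0.25 and −0.32 on the wild type arrays against −0.37, −0.44 and −0.39 on the knockout arrays. The groups did not overlap, by a narrow margin. The difference was −0.20 (SE 0.10, limma adjusted p = 0.382), while its other 2 tested probes gave 0.26 and 0.14.

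Spag6 was also singled out after its values were seen, because 1 wild type array stands apart. Its brightest probe measured 0.09, 1.05 and 1.25 on the wild type arrays against 0.69, 0.33 and 0.31 on the knockout arrays. Wild type 1 was the lowest of all arrays there. A second probe measured 0.15, 1.19 and 1.27 on the wild type arrays against 0.63, 0.05 and 0.05 on the knockout arrays. Wild type 1 was again far below the other wild types, but above knockouts 2 and 3. The differences were −0.35 and −0.62 (limma adjusted p = 0.56 and 0.384). Array and RefSeq use the names Spag6 and Spag6l in opposite ways, and these probes are those of the transcript on chromosome 2. A probe of the copy on chromosome 16, which the array names Spag6, is a member probe by name alone, and it differed by −0.06. Neither Spag16 nor Spag17 had a tested probe.

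The rulers Ccdc39 and Ccdc40, which are partners, did not pass the threshold. Ccdc39 measured −0.33, −0.30 and −0.17 on the wild type arrays against −0.33, −0.44 and −0.53 on the knockout arrays, a difference of −0.16 (SE 0.10, adjusted p = 0.421 in limma). Ccdc40 measured −2.83, −3.25 and −3.06 on the wild type arrays against −2.64, −2.99 and −2.83 on the knockout arrays, a difference of 0.23 (SE 0.15, adjusted p = 0.453 in limma). The groups of both overlapped, and a second Ccdc39 probe gave 0.03. Ccdc153, of the dynein regulatory complex, measured −2.43, −2.33 and −2.33 on the wild type arrays against −2.44, −2.54 and −2.62 on the knockout arrays. Its groups were apart by a narrow margin, between wild type 1 and knockout 1. The difference was −0.17 (SE 0.09, limma adjusted p = 0.391), and Iqcg, of the same complex, differed by −0.03.

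Among the remaining ciliary genes, Tmem212, a membrane protein, measured −3.03, −3.14 and −3.01 on the wild type arrays against −3.55, −3.29 and −3.55 on the knockout arrays. All knockout arrays were below all wild type arrays. The difference was −0.40 (SE 0.11, limma adjusted p = 0.307) and −0.49 with slide as a block, but −0.11 after normexp correction, and 1 probe was tested. Pifo, which acts in the disassembly of primary cilia, measured −2.39, −2.07 and −2.28 on the wild type arrays against −2.16, −2.29 and −2.12 on the knockout arrays, a difference of 0.06 (SE 0.11, adjusted p = 0.809 in limma). Its groups overlapped. Ak7, an adenylate kinase, and Mlf1 differed by 0.04 and −0.15. A second Ak7 probe differed by 0.38 with overlapping groups. A second, dimmer Mlf1 probe differed by −0.44 (limma adjusted p = 0.307), and its groups did not overlap. That Mlf1 difference was −0.38 with slide as a block and −0.12 after normexp correction.

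Probes of 1 gene often disagreed. Of the 24 members with 2 or more tested probes, 12 had all differences of 1 sign, 5 above 0 and 7 below, and the other 12 had differences of both signs. Over all 62 tested probes 27 differences lay above 0 and 35 below. At the edge of detection, just inside the limit lay the Ribc2 Agilent probe, 1 Pifo probe and 2 Ak7 probes, each well above background in all knockouts but not in all wild types. Just outside it lay a Stk36 probe (0 wild type and 2 knockout arrays), a Dnah5 probe (2 and 1) and the Ribc2 custom probe (1 and 2). Of the 19 untested probes, 12 were well above background on no array, which says only that they were not well above background.

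**Figure D4:**
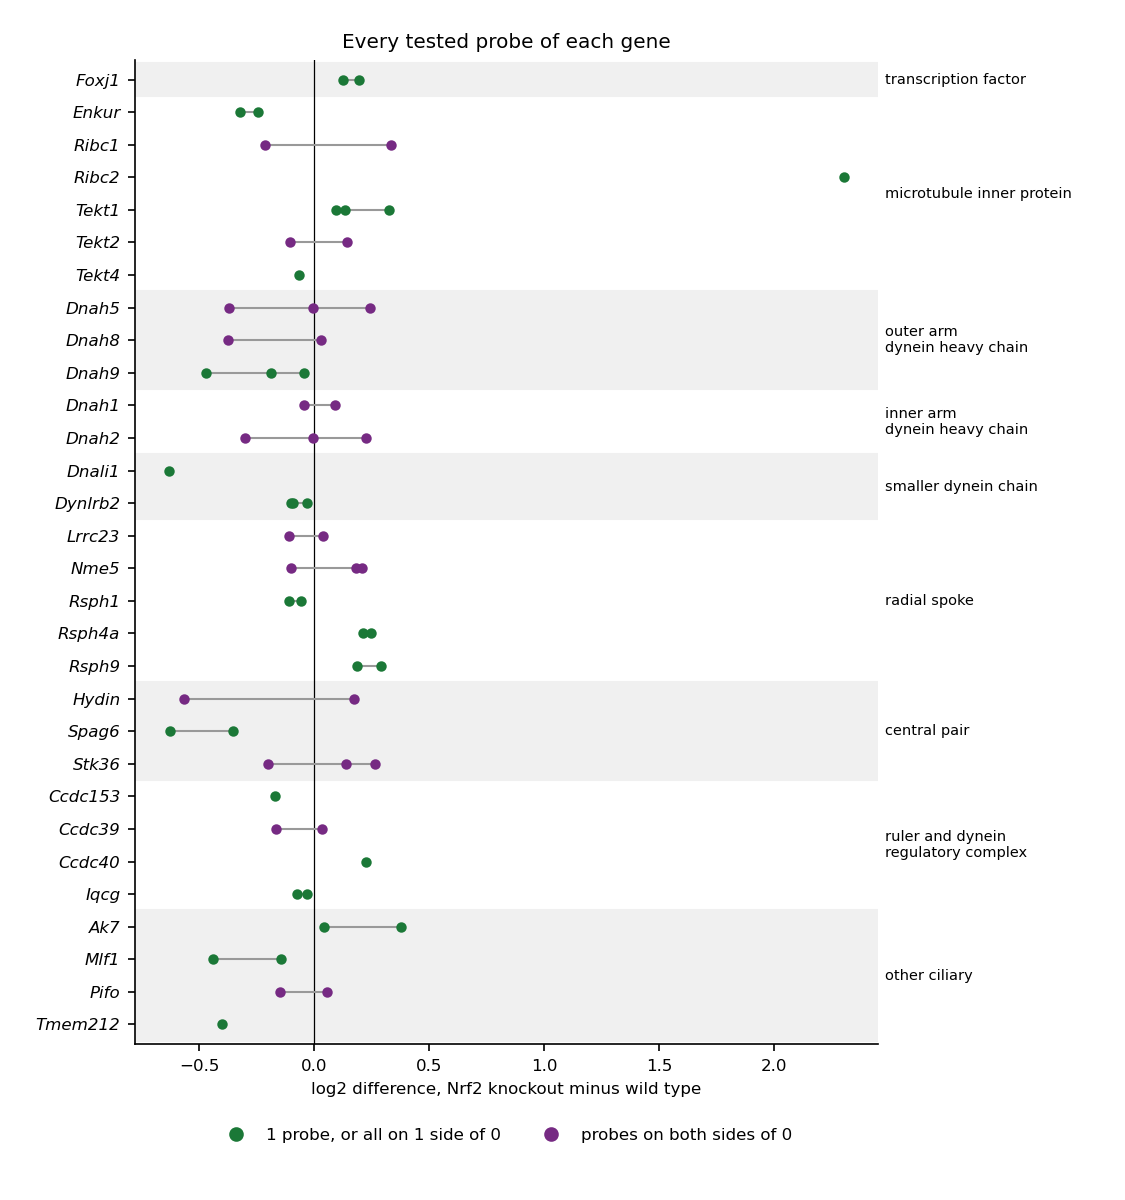
Difference in log2 signal between Nrf2 knockout and wild type (x axis) for every tested probe of 30 genes, joined by a grey line within a gene. Purple marks the 12 genes whose probes lie on both sides of 0, and green the genes with 1 tested probe or with all on 1 side.

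Circular RNAs, closed loops of back-spliced exons, give a readout of the members that the choice of the set did not use. The array held 77 inside member genes, and 37 of them, in 8 host genes, were tested. 27 of these came from Dnah9, where they overlap and share sequence. Limma called none of the 37 at an adjusted p under 0.05, and 8 had an unadjusted p under 0.05, which 14.5% of all circular RNAs of coding hosts had. The median difference was −0.10, with 14 above 0 and 23 below, while over 33629 circular RNAs of coding hosts it was 0.08 with 63.9% above 0. The groups did not overlap in 3 with the knockout higher (background 16%) and in 7 with the knockout lower (background 6.9%). Of those 7, all but a Stk36 circular RNA came from Dnah9, as did 6 of the 8 with an unadjusted p under 0.05. Overlapping loops of 1 gene are not separate members, so these counts mostly describe Dnah9 and not the set.

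The largest of these differences was that of a Dnah5 circular RNA at chr15:28378331-28384475, plus strand, with positions read as GRCm38. It measured −4.31, −4.06 and −4.22 on the wild type arrays against −3.45, −3.57 and −3.13 on the knockout arrays. Every knockout array was above every wild type array. The difference was 0.81 (SE 0.14, limma adjusted p = 0.307, unadjusted p = 9.39e-04). The value with slide as a block was 0.74. A second Dnah5 circular RNA differed by −0.07, and the brightest linear Dnah5 probe differed by less than 0.01 in size. The Dnah9 circular RNAs ranged from −0.59 to 0.60, with 10 of 27 above 0. A single circular RNA inside Foxj1 differed by 0.03.

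The wider ciliary programme outside the set showed no passing gene either. limma called 0 genes at an adjusted p under 0.05 in each of 4 further lists, and 3 of all 18056 genes. Of those 18056 genes, 47.9% lay above 0, and 527 were higher and 1750 lower at an unadjusted p under 0.05. Of the multiciliation programme, 10 of 12 genes were tested and the median was −0.08, with 3 lower and none higher at an unadjusted p under 0.05. Of the other axoneme genes 57 of 69 were tested, 36 above 0, with a median of 0.04, and 6 were higher and 4 lower at an unadjusted p under 0.05. The slide block brought the median of that list to −0.03, with 26 above 0, while the median of all genes was −0.06. Of the dynein arm assembly factors 11 of 12 were tested, 4 above 0, with a median of −0.06 and 0 at an unadjusted p under 0.05. Of the intraflagellar transport and primary cilium genes 51 of 51 were tested, 25 above 0, with a median of −0.01 and 1 lower at an unadjusted p under 0.05.

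A pair of genes in these lists had a measured difference of at least 1 log2 unit in size and groups that did not overlap, in 1 of them against a group below detection. Dnah6, an inner arm heavy chain, measured −2.11, −1.71 and −1.83 on the wild type arrays against 0.27, 0.89 and 0.24 on the knockout arrays. The difference was 2.34 (SE 0.21, limma adjusted p = 0.0821), and 2.15 with slide as a block, with an adjusted p of 0.306 there. After normexp correction it was 1.71. Another tested Dnah6 probe, well above background on 1 wild type array, had a measured difference of 3.07, or 0.74 after normexp. The remaining probe was well above background on no wild type array and was not tested. Deup1, which builds the deuterosomes that multiply centrioles, measured −4.15, −4.45 and −4.38 on the wild type arrays against −5.12, −6.26 and −5.11 on the knockout arrays. No knockout array was well above background, so the measured difference of −1.17 is no level, and wild type was at least 1.69-fold higher (adjusted p = 0.307 in limma). After normexp correction the difference was −0.09. Its second probe was well above background on no array.

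**Figure D5:**
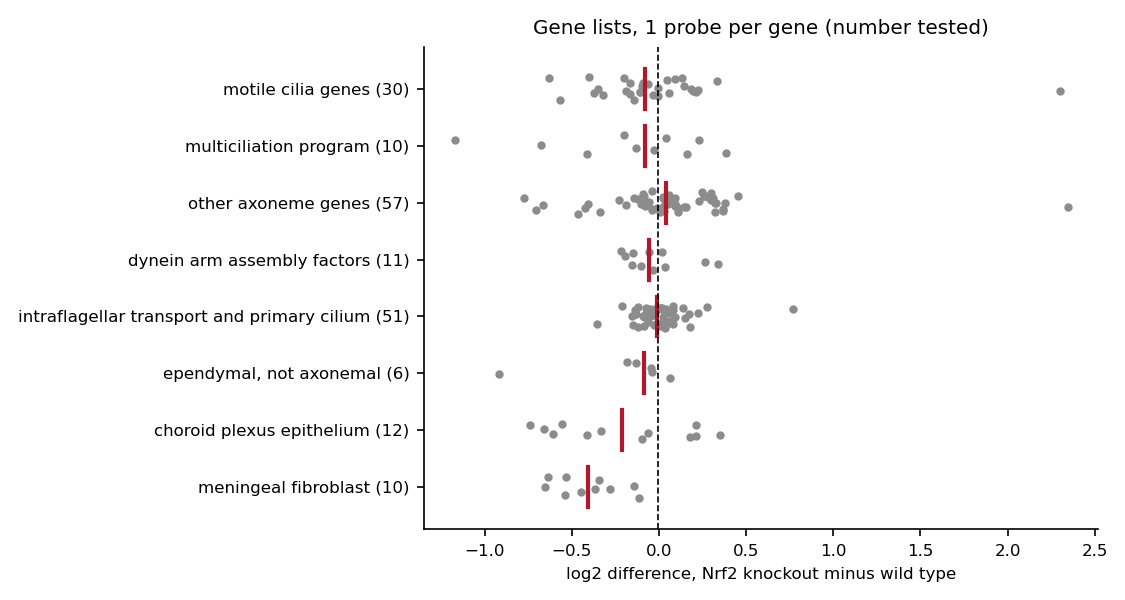
Difference in log2 signal between Nrf2 knockout and wild type (x axis) for single genes as grey points, by list, with the list's median in red and the median of all 18056 genes, −0.01, as a dashed line. Ribc2 and Dnah6 lie far right in their lists at 2.30 and 2.34, and Deup1 far left at −1.17.

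Markers of the cells that carry or adjoin cilia were measured beside these genes. All 6 ependymal markers outside the axoneme were tested, 1 above 0, with a median of −0.09. Their summed level, in units of the 75th percentile of the array, ran from 10.65 to 13.57 in wild type and from 10.3 to 13.1 in the knockout, with wild type 1 the highest array. Of 14 choroid plexus markers 12 were tested, 4 above 0, with a median of −0.21, and the sums were 28.1 to 32.7 and 25.89 to 29.99, while Otx2 and Cldn2 had no tested probe. All 10 meningeal fibroblast markers were tested and lay below 0, with a median of −0.40 and sums of 38.4 to 57.1 in wild type and 30.8 to 39.0 in the knockout. No marker passed the threshold in limma. Of the 3 lists, 0, 5 and 4 markers had an unadjusted p under 0.05, all lower in the knockout. Of all 18056 genes 12.6% had such a p in either direction, and 1750 were lower. The part of these markers in the differences of the ciliary genes was not tested.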

How the data were processed

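The authors deposited the scanner output of each array as background-subtracted intensity on a linear scale. Per the file headers the software was Feature Extraction 12.0.3.1, whereas version 10.7 and limma stand in the submitters' processing notes. They also deposited a table of log2 values (judged by its match to the scanner output), used as an alternative only. The intensities were divided by the 75th percentile of their array and put on the log2 scale. The 4974 control spots were dropped, and flagged outlier spots were treated as missing. The precision is limited by 3 arrays per genotype, and no probe was saturated. Probes well above background on all 3 arrays of a genotype were tested with limma 3.58.1 in R 4.3.3 (knockout minus wild type, no covariate; checked on simulated data), two-sided, with Benjamini-Hochberg adjustment over 105924 probes and a threshold of 0.05. Where a group was above background on no array, the bound compares the mean of the brighter group with a floored mean of the dim one, in which no array counts for less than its lowest signal well above background.

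The members and lists were chosen with earlier results of these data known. Per-array values are given for Ribc2, Ribc1, Foxj1, any member past the threshold and, in each role, the genes of highest mean signal and of most positive and most negative difference. Of the other lists, genes past the threshold, genes with non-overlapping groups and a difference of at least 1, and Dnah6 are named. Promoter sequences are from RefSeq on GRCm38.p6. Alternatives were background correction, normalization, the detection filter, slide, a replicate block, leaving out each array and averaging the probes of a gene.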

Additional observations from a re-analysis of the deposited data

How the results depend on the processing

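The median over member genes stayed below 0 in every alternative, between −0.12 and −0.03, and moved by less than the spread between arrays each time. Without Ribc2 and Ribc1 it stayed between −0.14 and −0.05. At the reported settings, the count of member probes past the threshold holds only Ribc2, whose values chose the set. Its changes are therefore a description and no test of stability. The filter on all 6 arrays leaves the Ribc2 probe out, so the count with that filter could not include it. The 1 became 0 after normexp correction, with the filter on all 6 arrays, with slide as a fixed block and with the replicate block. In that order, 7, 8, 3 and 8 member probes had an unadjusted p under 0.05, against 18379, 15325, 6005 and 14044 of all probes tested there. Leaving out 1 array each gave 0 to 3: it was 0 without wild type 2, wild type 3 or knockout 3 and 3 without knockout 1 (Ribc2, Hydin and Dnah8, the last at an adjusted p of 0.0473). Over all tested probes the count of 10 became 16 with normexp, 4 with the filter on all 6 arrays, 4 on slide 1 alone and 2 with the replicate block, and leaving out 1 array gave 5 to 13450, the highest without knockout 1, where slide and genotype cannot be told apart. It was 50 without wild type 1. Deviations of same-numbered arrays correlated at −0.013, −0.05 and 0.038 across probes. The knockout deviations also hold the split by slide, so these values cannot decide whether the replicate numbers pair the samples. The replicate block describes a shared number only. Of 293 alternative values of the 21 named members, 277 moved by less than 1 SD. The other 16 came from slide as a block or slide 1 alone (Ccdc153, Ccdc39, Dnah9, Hydin, Nme5, Ribc1 and Ribc2) or from normexp (Ribc2 and Tmem212). Slide as a block and slide 1 alone give the same difference, that of knockout 1 against wild type. Each such move is therefore counted under both. Dim signal limits Ribc2 most, since wild type gives only a bound there.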
